A study of Drosophila melanogaster with 10 samples.

Results

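The genes described here encode the sorting machinery of the membrane traffic of a cell: Rab GTPases and their regulators, Vps and Snx proteins of endosomes, and Sec proteins of the secretory route. They were chosen by name, as probe sets whose single gene symbol in the platform annotation begins with Rab, Vps, Syx, Sec or Snx followed by a number (or Rab by X), or is Hrs or shrb, with Rab3, Syx1A and Vps15 left out. The rule found 74 genes, measured by 82 probe sets, of 10844 genes named by 1 symbol and 13966 probe sets in all. Each gene is represented by its brightest probe set, that is, the probe set with the highest mean over the 9 arrays compared. The 74 genes comprised 23 Rab, 25 Vps, 17 Sec and 7 Snx names with Hrs and shrb, and 0 syntaxins, so they are called here the Rab, Vps, Sec and Snx genes. A RefSeq gene table lists 98 genes that fit the rule, of which 24 were not analysed here, among them Rab1, Rab5, Rab7, Rab8, Rab11, Sec23 and 9 syntaxins including Syx5.

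Membrane traffic moves proteins along 2 main routes. On the secretory route, new proteins enter the endoplasmic reticulum (ER) through the Sec61 channel, leave it in vesicles coated with COPII, pass the Golgi and reach the cell surface, where the exocyst tethers vesicles to the plasma membrane. On the endocytic route, surface proteins are taken into endosomes, where ESCRT complexes sort them into internal vesicles for destruction in the lysosome, while retromer and sorting nexins return others. Rab GTPases mark each compartment and recruit tethers to it, and SNARE proteins fuse the membranes. In fly neurons that prune their axons or dendrites at metamorphosis, endosomal sorting, ESCRT genes included, is known to be needed to remove surface proteins.

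RNA came from mushroom body neurons of Drosophila pupae, the neurons of a brain centre for olfactory learning, which remodel their larval branches at metamorphosis under the hormone ecdysone. All animals were yw/w and carried the membrane-bound green fluorescent protein UAS-mCD8::GFP opposite UAS-EcRB1[W650A], a dominant negative ecdysone receptor. Both were driven by the mushroom body driver OK107-GAL4, present over a wild-type chromosome. The 6 arrays at 0 h after puparium formation and the 3 at 5 h therefore differ, by their labels, in age, and arrays of y,w animals, which the series design sets against these, were not analysed here. About 100 cell bodies were taken in each laser capture, 40 captures were pooled per replicate, and their RNA was amplified in 2 rounds. The driver is active in several classes of mushroom body neurons, of which not all prune. Per the labels the replicates are biological, but the number of animals behind each is not stated. A further array, whose title gives 5 h and whose age and description give 0 h, entered no comparison.

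Most of the Rab, Vps, Sec and Snx genes had signals above background in these neurons, and more of them read higher at 5 h than lower. Rab10, a GTPase that directs Golgi-derived vesicles to the cell surface, was the 1 gene of 74 that passed the test (1.35%, against 1.25% of all probe sets). It rose 1.99-fold from 0 h to 5 h, but the call was lost when any 1 of the 5 h arrays was left out. Several genes of the secretory route had higher readings at 5 h without passing the test, among them the exocyst genes Sec8 and Sec5 and the Rabs Rab19 and Rab26. The ESCRT gene Vps25 was the 1 gene whose 5 h arrays all lay below all 0 h arrays (1.35%, against 4.40% of all probe sets), also without passing. The 6 arrays at 0 h themselves fell into sets of 3, replicates 1 to 3 and 4 to 6. These sets did not overlap in 31 of the 74 genes (41.9%). The same held for 6092 of all 13966 probe sets and 3741 of the 8290 named genes above background.

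Values are deposited log2 signals, so a difference of 1 is a 2-fold change. Column medians were 4.31 to 4.44. Of 8 control probe sets that match no fly gene, the brightest had a mean of 3.43, which served as the background level. Of the mushroom body markers fixed for this purpose, 7 of 8 were measured and all 7 were above background, with array means of 8.12 to 8.69 at 0 h and 8.66 to 8.73 at 5 h, although dac read only slightly above it. Markers of other cells were present too: the mean of 6 glial genes was 4.65 to 5.17 on the 0 h arrays and 5.74 to 5.80 on the 5 h arrays, and that of 4 fat body genes was 6.43 to 9.19 and 6.73 to 8.31. The hemocyte list read 3.73 to 3.97 and 4.21 to 4.26, with Hml and NimC1 below background. The 3' minus 5' signal of the actin controls, a measure of RNA truncation during amplification, was 7.45 to 8.10 at 0 h and 8.47 to 8.63 at 5 h, so the ages did not overlap in it.

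Of the 74 genes, 68 were above background (91.9%), against 10328 of 13966 probe sets. The 6 below it were Vps36, Snx16, Rab23, Rab30, RabX2 and RabX5. The median log2 signal was 6.0 over the 21 secretory genes, 5.45 over the 35 endocytic genes, 5.03 over the 2 SNARE genes and 4.92 over the 16 others, against 4.36 over all probe sets. Probe sets differ in how brightly they bind their RNA, so these medians describe the arrays and do not rank genes by RNA level.

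Ages were compared by limma over all 13966 probe sets with Benjamini-Hochberg adjustment. At an adjusted p under 0.05, 1 of the 74 genes was called (1.35%), and it was higher at 5 h. Of all probe sets 174 were called (1.25%), 141 of them higher (1.01% of the probe sets) and 33 lower. After the deposited values were quantile-normalized once more, 254 were called (1.82%), 153 higher and 101 lower. An unadjusted p under 0.05 was reached by 18 of the 74 genes (24.3%), 16 of them higher at 5 h, against 14.7% of all probe sets in either direction and 9.17% higher. Among the 8290 named genes above background, 1534 reached it, 1053 of them higher. The 5 h and 0 h arrays did not overlap in 14 genes (18.9%), 13 of them higher and 1 lower at 5 h. Of all probe sets 9.79% did not overlap, 5.39% higher and 4.40% lower, and of the named genes above background 11.4% did not. At 5 h 49 of the 74 genes read higher, or 66.2%, against 36.7% of all probe sets and 3705 of the 8290 named genes above background. The median difference of the 74 genes, 5 h minus 0 h, was 0.09 on the log2 scale, with quartiles of -0.06 and 0.35. That of all probe sets was -0.07. The 95% interval of the difference lay within a 2-fold change either way in 64 genes (86.5%), against 92.1% of all probe sets, and in 15 of the 21 secretory genes (71.4%).

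**Figure D1:**
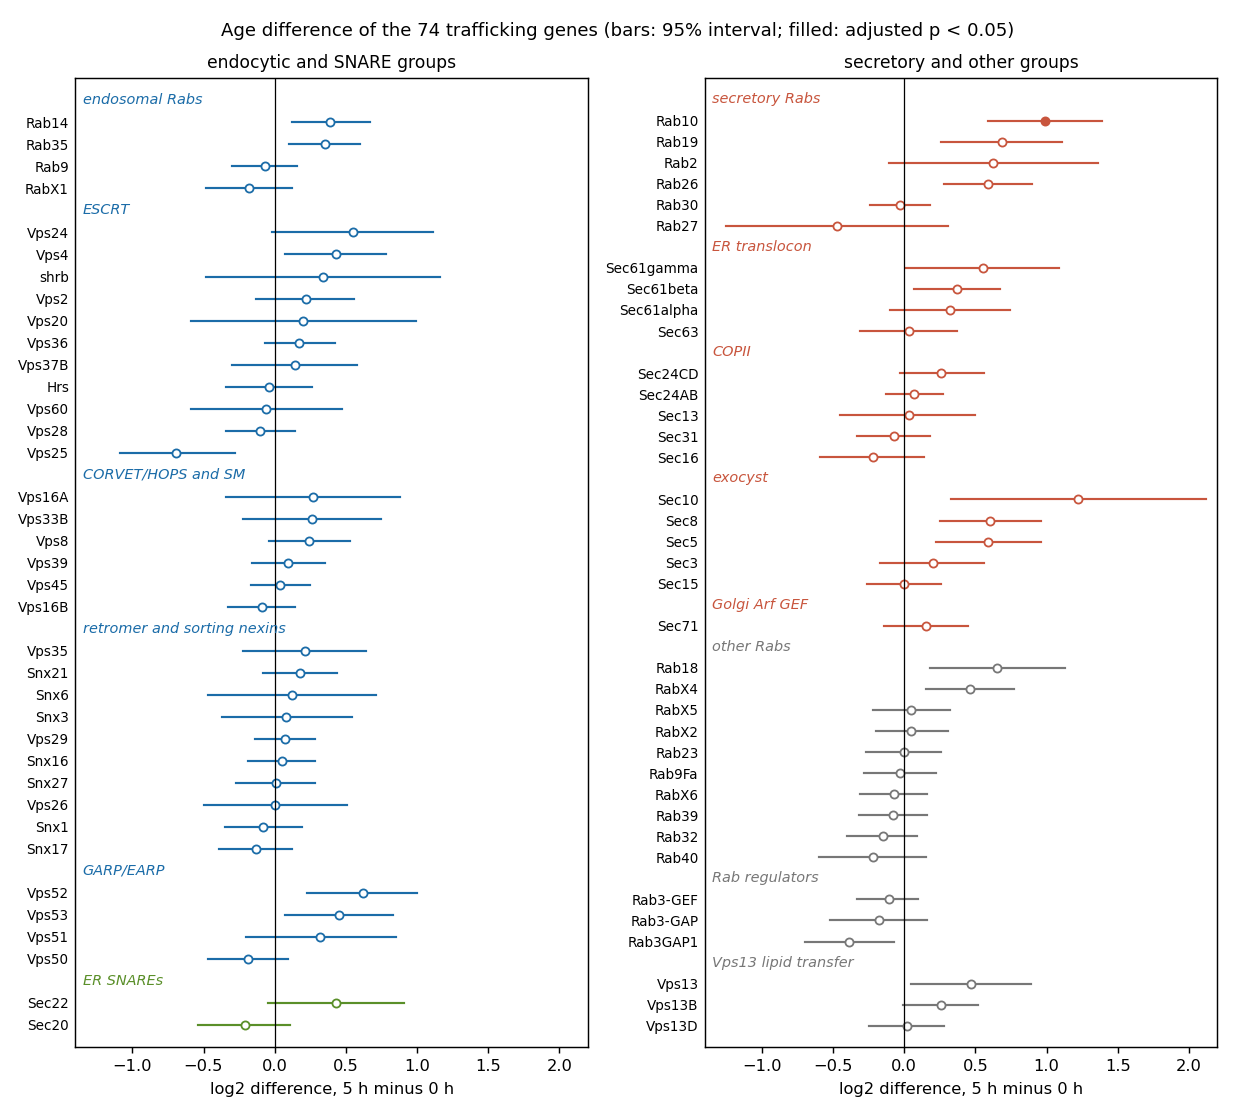
Difference in log2 signal, 5 h minus 0 h, on the horizontal axis for the 74 Rab, Vps, Sec and Snx genes, arranged by complex; points are the limma estimates and bars their 95% intervals. Rab10 at 0.99 is the 1 gene called, Sec10 at 1.22 has the largest difference and a wide interval, and Vps25 at -0.69 is the lowest.

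The plot of differences by complex shows most genes within 0.5 of 0. Beyond it lay 12 (16.2%, against 8.18% of all probe sets and 11.4% of named genes above background). Of these 12, 8 were among the 21 secretory genes.

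Rab10 was among the brightest of the probe sets here. Its 0 h arrays read 9.12 to 9.86 with a median of 9.38, and its 5 h arrays read 10.37, 10.35 and 10.64. All 3 arrays at 5 h were above all 6 at 0 h. The 0 h mean was 9.46 ± 0.33 (SD, n = 6) and the 5 h mean 10.45 ± 0.17 (SD, n = 3), a difference of 0.99 with a standard error of 0.18 and a 95% interval of 0.59 to 1.39 (limma, adjusted p = 0.028). The probe set carries the suffix that Affymetrix gives to sets designed under relaxed selection rules. The second probe set of Rab10 lay near background, at 2.82 to 3.44, and differed by 0.12 (limma, adjusted p = 0.65). The difference was 1.14 against 0 h replicates 1 to 3 alone and 0.84 against replicates 4 to 6 alone, 2 comparisons that share the 5 h arrays. The call was lost when 0 h replicate 2 or 3 or any 1 of the 5 h arrays was left out, with differences of 0.89 to 1.07 over all 9 omissions and adjusted p of 0.022 to 0.22. With the actin 3' minus 5' signal as a covariate the difference was 0.68 (adjusted p = 1). The array means of the glial, hemocyte and neuron lists did not overlap between the ages, those of the neuron list lying at 4.54 to 4.84 and 5.01 to 5.04. In the hemocyte list only crq did not overlap, at 1.39 (limma, adjusted p = 0.063). Pxn and Col4a1 differed by 0.40 and 0.12, and Hml and NimC1, both below background, by -0.07 and -0.20. Of the 6 glial genes measured, 3 rose (bdl, nrv2 and wun2), repo differed by 0.83 with overlap (adjusted p = 0.25), and moody and Gs2 differed by -0.11 and -0.37 (adjusted p = 0.71 and 0.23). Some markers of the intended cells rose too, namely toy by 1.06 (adjusted p = 0.038), 14-3-3zeta by 0.66 (adjusted p = 0.025) and the neuronal gene elav by 0.86 (adjusted p = 0.033). The other mushroom body markers did not pass: ey, prt, dac, rut and dnc differed by -0.10, -0.16, 0.07, 0.24 and 0.62. Nor did the other neuronal genes brp, nSyb and cac, at 0.28, 0.32 and -0.09. The part of these shifts in the Rab10 result was not tested. In captured tissue such as this, fewer cells of a type and less RNA per cell cannot be told apart.

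The other 5 secretory Rabs did not pass the test. Rab26, a GTPase of synaptic and secretory vesicles, read 5.22 to 5.64 at 0 h with a median of 5.40, and 5.81, 6.25 and 5.93 at 5 h. Its arrays did not overlap, and the difference was 0.59 (adjusted p = 0.07). Rab19, a Golgi-associated GTPase, read 5.31 to 6.17 at 0 h (median 5.92) and 6.67, 6.42 and 6.30 at 5 h, again without overlap, with a difference of 0.69 (adjusted p = 0.12). Rab2, which acts between the ER, the Golgi and lysosome-bound carriers, read 5.89, 5.45 and 5.41 in 0 h replicates 1 to 3, 4.43, 4.22 and 4.46 in replicates 4 to 6, and 5.53, 5.49 and 5.78 at 5 h. Its 5 h values thus fell within the span of replicates 1 to 3, and the difference of 0.62 had an adjusted p of 0.41. Rab27, a GTPase of secretory granules and lysosome-related organelles, was the second brightest of the 74 probe sets. It read 8.89 to 9.28 in 0 h replicates 1 to 4, 10.50 and 10.47 in replicates 5 and 6, and 8.97, 8.98 and 9.29 at 5 h, so 2 of the 0 h arrays were more than 2-fold brighter than the rest. Its difference with age was -0.47 (adjusted p = 0.53). Rab30, another Golgi Rab, was below background.

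The exocyst is the tether that holds secretory vesicles at the plasma membrane, and 5 of its genes were measured. Sec8 read 6.42 to 7.10 at 0 h with a median of 6.89, and 7.35, 7.30 and 7.59 at 5 h. The ages did not overlap, and the difference was 0.60 with a standard error of 0.16 (adjusted p = 0.10). Sec5 read 6.10 to 6.91 at 0 h (median 6.49) and 6.87, 7.19 and 7.30 at 5 h, where the lowest 5 h array lay under the highest 0 h array, and differed by 0.59 (adjusted p = 0.12). Sec10 had the largest difference of all 74 genes, 1.22 with a standard error of 0.41 and an adjusted p of 0.19. Its 0 h replicates 1 to 3 read 7.19, 7.0 and 6.88, replicates 4 to 6 read 5.41, 5.46 and 5.67, and the 5 h arrays read 7.21, 7.55 and 7.72. Against replicates 1 to 3 alone Sec10 was higher by 0.47 (adjusted p = 0.07), and against replicates 4 to 6 alone by 1.98 (adjusted p = 0.00014). Most of its difference thus came from 3 low arrays at 0 h. Sec3 and Sec15, the other 2 exocyst genes, differed by 0.20 and -0.00. The 5 genes averaged 5.79 ± 0.21 (SD, n = 6) on the younger arrays and 6.31 ± 0.22 (SD, n = 3) on the older, and the lowest array at 5 h, 6.07, was above the highest at 0 h, 6.01. That narrow gap includes Sec10 and does not describe each gene, since Sec3, Sec5 and Sec15 overlapped between the ages. On 5 h replicate 1 Sec3 read 4.97, below its 0 h range of 5.05 to 5.40.

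**Figure D2:**
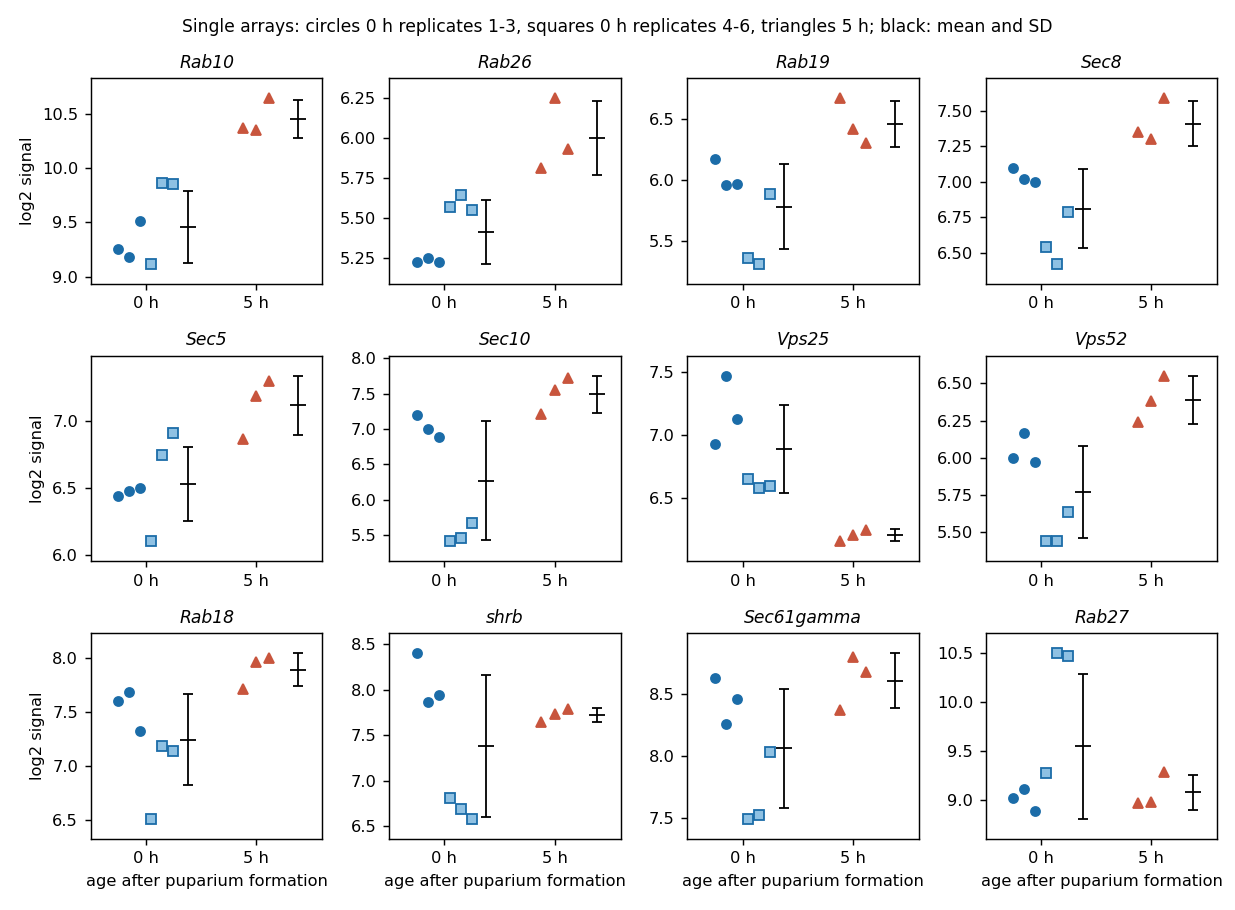
Deposited log2 signal of single arrays by age for 12 genes picked after their values were seen; each point is 1 array (circles 0 h replicates 1 to 3, squares 0 h replicates 4 to 6, triangles 5 h), and black bars are the mean and SD of an age. Rab10 is higher at 5 h on every array, while Sec10 and shrb divide the 0 h arrays by more than they divide the ages.

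The plot of single arrays sets genes that kept their 0 h arrays together beside genes that did not. For Rab10 both sets of 0 h arrays lay below the 5 h arrays. For Sec10 and shrb replicates 4 to 6 lay more than 1 log2 unit below replicates 1 to 3.

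The ER channel and its partners read higher at 5 h in 4 of 4 measured genes, none of which passed. Sec61gamma, a small channel subunit, read 7.49 to 8.63 at 0 h (median 8.14) and 8.37, 8.80 and 8.68 at 5 h, with overlap and a difference of 0.55 (adjusted p = 0.33). Its difference was 0.17 against 0 h replicates 1 to 3 alone and 0.94 against replicates 4 to 6 alone. Sec61beta did not overlap, at 7.37 to 8.03 and 8.05 to 8.13, with a difference of 0.37 (adjusted p = 0.24). Sec61alpha, which forms the pore, read 6.18 on 0 h replicate 4 and 6.89 to 7.11 on the other 0 h arrays, and 7.22, 7.11 and 7.34 at 5 h, a difference of 0.32 (adjusted p = 0.45). Sec63, which helps to drive chains through the channel, differed by 0.03. The COPII genes, Sec13, Sec16, Sec24AB, Sec24CD and Sec31, build the coat of vesicles that leave the ER, and their differences lay between -0.22 and 0.26. Sec24AB, a cargo adaptor of that coat, had the narrowest span at 0 h of all 74 genes, 0.16, and differed by 0.07 (95% interval -0.13 to 0.27). Sec71, an Arf exchange factor of the Golgi, differed by 0.15.

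Over the 21 secretory genes 16 read higher at 5 h (76.2%, against 36.7% of all probe sets), and the median difference was 0.26 with a range of -0.47 to 1.22. Among the 8290 named genes above background, 3705 read higher. The mean signal of the 21 secretory genes on single arrays was 5.85 to 6.24 at 0 h and 6.30 to 6.49 at 5 h. The mean over all probe sets was 4.69 ± 0.03 (SD, n = 6) and 4.68 ± 0.01 (SD, n = 3). The mean of the glial list, that of the neuron list and the actin 3' minus 5' signal were likewise higher on each 5 h array than on any 0 h array. With the actin signal as a covariate the secretory median was 0.14. Sec10 then differed by 0.34, Rab2 and Sec61gamma by 0.06 each, Sec61alpha by -0.17 and Sec24AB by 0.02. Rab10, Rab19 and Rab27 moved less, from 0.99 to 0.68, from 0.69 to 0.59 and from -0.47 to -0.37. The part of the marker shifts in the secretory readings was not tested.

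Of the 35 endocytic genes 0 passed the test in limma, against 1.25% of all probe sets. An unadjusted p under 0.05 was reached by 6 (17.1%, against 14.7% of all probe sets), 25 read higher at 5 h (71.4%, against 36.7%) and the median difference was 0.12. Among the 8290 named genes above background, 1534 reached that p and 3705 read higher. ESCRT complexes gather ubiquitin-tagged proteins and bud them into endosomes. Hrs, which binds the tagged proteins first, read 6.73 to 7.35 at 0 h with a median of 6.96 and 6.94, 6.97 and 6.91 at 5 h. The ages overlapped fully, and the difference was -0.04 with a 95% interval of -0.34 to 0.26 (adjusted p = 0.89). Vps28 and Vps37B, subunits of ESCRT-I, differed by -0.10 and 0.14. Vps25, a subunit of ESCRT-II, read 6.93, 7.47 and 7.13 in 0 h replicates 1 to 3, 6.65, 6.58 and 6.60 in replicates 4 to 6, and 6.16, 6.21 and 6.25 at 5 h. All 3 arrays at 5 h were below every 0 h array, and the difference was -0.69 with a standard error of 0.19 (adjusted p = 0.10). It passed when the values were quantile-normalized again, at -0.82 (adjusted p = 0.02), and it was -0.97 against 0 h replicates 1 to 3 alone (adjusted p = 0.0021) and -0.40 against replicates 4 to 6 alone (adjusted p = 0.027). Vps36, its partner in ESCRT-II, was below background.

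The ESCRT-III subunits form the filament that cuts vesicles free. shrb, the fly Snf7 and core of that filament, read 8.40, 7.87 and 7.94 in 0 h replicates 1 to 3, 6.81, 6.69 and 6.58 in replicates 4 to 6, and 7.64, 7.73 and 7.79 at 5 h. It had the widest span at 0 h of the 74 genes, 1.82, with the 5 h arrays between the 2 sets, and its difference with age was 0.34 (adjusted p = 0.65). Vps24 read 5.79 to 7.15 at 0 h (median 6.59) and 6.96, 7.14 and 7.23 at 5 h, with a difference of 0.55 (adjusted p = 0.36). That difference was 0.12 against 0 h replicates 1 to 3 alone and 0.98 against replicates 4 to 6 alone. The remaining ESCRT-III genes Vps2, Vps20 and Vps60 differed by 0.22, 0.20 and -0.06. Vps4, the ATPase that takes the filament apart, read 6.14 to 6.89 at 0 h (median 6.67) and 6.96, 6.92 and 7.14 at 5 h, without overlap, a difference of 0.43 (adjusted p = 0.25). Over the 11 ESCRT genes 7 read higher at 5 h, against 36.7% of all probe sets, with a median difference of 0.17. This median was not steady in sign. It was -0.13 against 0 h replicates 1 to 3 alone, with 5 genes higher, and 0.30 against replicates 4 to 6 alone, with 8 higher.

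Among endosomal Rabs, Rab14, which acts between endosomes and the Golgi, read 7.71 to 8.22 at 0 h (median 7.97) and 8.29, 8.49 and 8.30 at 5 h. The ages did not overlap, and the difference was 0.39 (adjusted p = 0.17). Rab35, a Rab of recycling endosomes, differed by 0.35 without overlap at signals close to background, 3.42 to 3.80 and 3.83 to 3.98 (adjusted p = 0.18). Rab9 and RabX1 differed by -0.07 and -0.18.

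GARP, built of Vps51, Vps52 and Vps53, tethers carriers from endosomes to the Golgi, and EARP uses Vps50 in place of a further subunit to serve recycling endosomes. Vps52 read 5.44 to 6.17 at 0 h (median 5.80) and 6.24, 6.38 and 6.55 at 5 h, without overlap, and differed by 0.62 (adjusted p = 0.12). Against 0 h replicates 1 to 3 alone Vps52 differed by 0.35, and against replicates 4 to 6 alone by 0.89. Vps53 read 4.35 to 5.18 (median 4.75) and 4.87, 5.36 and 5.36, a difference of 0.45 (adjusted p = 0.26), and Vps51 and Vps50 differed by 0.32 and -0.19. In retromer, which retrieves receptors from endosomes, Vps35 read 4.61 to 5.68 at 0 h (median 5.01) and 5.11, 5.42 and 5.25 at 5 h, a difference of 0.21 (adjusted p = 0.60), while Vps26 and Vps29 differed by 0.00 and 0.07. The 7 sorting nexins differed by -0.13 to 0.18. For Snx6 the probe sets disagreed in sign, at 0.12 for the brighter and -0.27 for the other, both above background and neither past the test (adjusted p = 0.83 and 0.49). Among the CORVET and HOPS tethers of endosomes and lysosomes and related genes (Vps8, Vps16A, Vps16B, Vps33B, Vps39 and Vps45), differences ran from -0.09 to 0.27. Vps16A, the brightest of these, read 7.06 to 8.49 at 0 h (median 7.75) and 7.76, 8.06 and 8.15 at 5 h.

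The SNARE genes of the rule were 2, Sec20 and Sec22, which act in traffic between the Golgi and the ER. Sec20 read 4.09 to 4.66 at 0 h (median 4.37) and 4.25, 4.15 and 4.09 at 5 h, a difference of -0.21 (adjusted p = 0.50). Sec22 read 5.00 to 6.26 (median 5.57) and 5.96, 6.06 and 6.08, a difference of 0.43 (adjusted p = 0.39). Against 0 h replicates 1 to 3 alone Sec20 and Sec22 differed by 0.02 and 0.16, and against replicates 4 to 6 alone by -0.44 and 0.71. With only 2 genes, which leaned opposite ways over all 0 h arrays, no level or change can be given for SNAREs as a class.

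The 16 other genes held 10 further Rabs, 3 Rab regulators and 3 lipid transfer proteins of the Vps13 family, and their median difference was -0.02. Rab18, a GTPase of the ER and lipid droplets, read 6.51 to 7.68 at 0 h (median 7.25) and 7.71, 7.96 and 8.0 at 5 h, without overlap, a difference of 0.65 (adjusted p = 0.19). For Rab18 it was 0.36 against 0 h replicates 1 to 3 alone and 0.95 against replicates 4 to 6 alone. Vps13 read 4.34 to 5.17 (median 4.74) and 5.04, 5.02 and 5.48, a difference of 0.47 (adjusted p = 0.29). RabX4, a Rab-like gene, read 5.04 to 5.63 (median 5.38) and 5.66, 5.86 and 5.88, without overlap, a difference of 0.46 (adjusted p = 0.15). The other Rabs of this group above background (Rab32, Rab39, Rab40, Rab9Fa and RabX6) differed by -0.22 to -0.03. Vps13B did not overlap either, with a difference of 0.26 (adjusted p = 0.36), and Vps13D differed by 0.02. The regulators Rab3-GAP, Rab3-GEF and Rab3GAP1 differed by -0.18, -0.11 and -0.39.

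**Figure D3:**
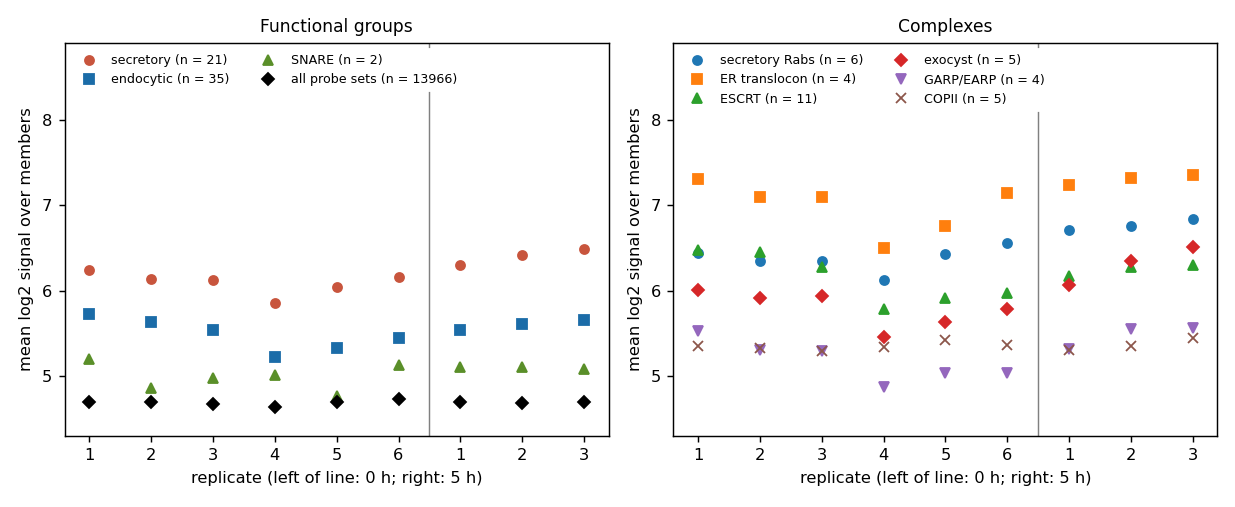
Mean log2 signal over the genes of each functional group (left) and of 6 complexes (right) on each of the 9 arrays, with 0 h replicates left of the line and 5 h replicates right of it; replicates have no order. The secretory mean is 5.85 to 6.24 at 0 h and 6.30 to 6.49 at 5 h, and the endocytic mean is 5.22 to 5.72 and 5.54 to 5.65.

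The endocytic mean was below the secretory mean on each of the 9 arrays. The gap, endocytic minus secretory, was -0.72 to -0.50 at 0 h (mean -0.61 ± 0.09, SD, n = 6) and -0.84 to -0.76 at 5 h (mean -0.80 ± 0.04, SD, n = 3), so that the arrays of the ages did not overlap in it. The 0 h replicates 4 to 6, at -0.64, -0.71 and -0.72, lay nearer to the 5 h arrays than replicates 1 to 3, at -0.52, -0.50 and -0.58. No p is given, since the groups were drawn up with results of these arrays known. The plot of group means shows that the endocytic mean overlapped between the ages and the secretory mean did not. The endocytic median difference was not steady in sign: it was 0.12 with all 0 h arrays, -0.01 against replicates 1 to 3 alone, 0.27 against replicates 4 to 6 alone and -0.03 with the actin 3' minus 5' signal as a covariate. For the secretory genes the median was 0.16 against replicates 1 to 3, 0.35 against replicates 4 to 6 and 0.14 with that covariate.

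The 0 h arrays also differed among themselves. Replicates 4 to 6 lay wholly below replicates 1 to 3 in 22 of the 74 genes (29.7%, against 16.3% of all probe sets and 22.7% of named genes above background) and wholly above in 9 (12.2%, against 27.3% and 22.4%). Of the 35 endocytic genes 14 were lower in replicates 4 to 6 and 1 was higher, and of the 21 secretory genes 5 were lower and 4 higher. In ESCRT 7 of 11 genes were lower, namely Vps4, Vps20, Vps24, Vps25, Vps37B, Vps60 and shrb. The labels name no batch that divides these arrays. Against replicates 1 to 3 alone 9 of the 74 genes passed (12.2%, against 8.11% of all probe sets), 7 of them higher at 5 h (4.37% of all), and against replicates 4 to 6 alone 24 passed (32.4%, against 22.0% of all probe sets), 19 of them higher (12.5% of all). Both comparisons use the same 5 h arrays.

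**Figure D4:**
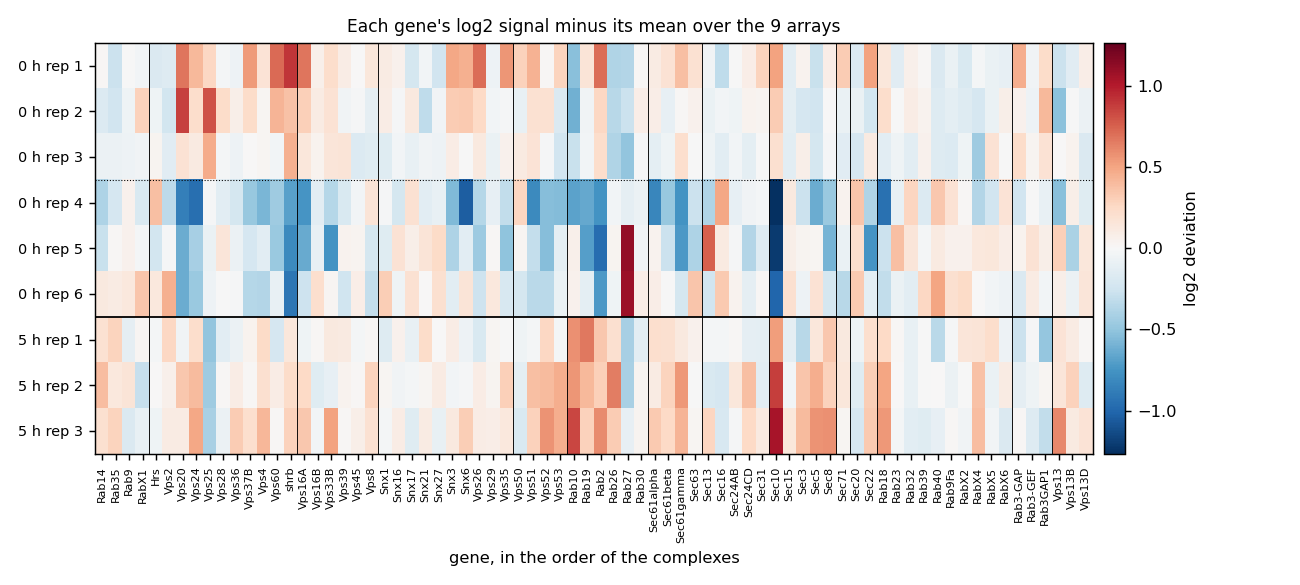
Log2 signal of each of the 74 genes (columns, in the order of their complexes) on each of the 9 arrays (rows), as the deviation from the mean of that gene over the 9 arrays; red is above and blue below. Several ESCRT genes, Sec10 and Rab2 are blue in 0 h replicates 4 to 6, Rab27 is deep red in 0 h replicates 5 and 6, and Rab10 is red in all 3 arrays at 5 h.

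The map of deviations shows wide departures at 0 h in Sec10, Rab27, shrb and, on replicate 4 alone, Snx6. The median SD of the 74 genes was 0.23 over the 6 arrays at 0 h and 0.13 over the 3 at 5 h. Over all probe sets it was 0.21 and 0.11, and over the named genes above background 0.23 and 0.12.

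A list of 66 other trafficking genes, such as coat proteins, adaptors, fusion factors and Rab recyclers, was read beside these, and 52 of them were measured. Of these 2 rose and 0 fell in limma (3.85%, against 1.25% of all probe sets), and 12 had an unadjusted p under 0.05 (23.1%, against 14.7%). At 5 h 35 read higher (67.3%, against 36.7%), and the median difference was 0.10. Among the 8290 named genes above background, 3705 read higher and 1534 had an unadjusted p under 0.05. Against 0 h replicates 1 to 3 alone 26 of the 52 read higher, with a median of 0.00. Against replicates 4 to 6 alone 39 did, with a median of 0.21. Of all 13966 probe sets 6850 and 5096 read higher in these comparisons. Gdi, the GDP dissociation inhibitor that extracts Rabs from membranes for reuse, read 7.74 to 8.25 at 0 h and 8.78, 8.99 and 8.92 at 5 h. It did not overlap and rose 1.76-fold, by 0.82 with a standard error of 0.12 (adjusted p = 0.01). Tango1, which loads bulky cargo at ER exit sites, read 6.96 to 7.67 at 0 h and 8.10, 8.07 and 8.09 at 5 h. It rose 1.68-fold, by 0.75 with a standard error of 0.14 (adjusted p = 0.033). The same shifts of the glial and neuron list means and of the actin 3' minus 5' signal stand beside both genes, and their part in them was not tested.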

How the data were processed

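Each array was an Affymetrix Drosophila Genome Array. The deposited values are log2 signals. The submitters' processing notes name RMA and Affymetrix Expression Console for them, without versions. No source used here says which arrays went through RMA together. An array holds no counts, so precision rests on how many arrays there are.

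Of 14010 probe sets, 44 Affymetrix controls were left out. The other 13966 were tested, unfiltered and as deposited, by the two-sided test of lmFit and eBayes in limma 3.58.1 under R 4.3.3, with Benjamini-Hochberg adjustment and a threshold of 0.05. The steps were tested on simulated data. Symbols were those of the platform annotation, and 1 probe set of the rule with several symbols was left out. No coordinates are printed, because no genome build is named in the files.

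Ages and replicate numbers came from the descriptions. The p-values measure the spread between these samples. The genes, the lists and the alternatives were chosen with earlier results of these data known. The genes named are those past the threshold, the 4 largest differences and 3 brightest in each of the endocytic, secretory and SNARE groups, the 2 largest among the others, textbook members (Rab1, Rab5, Rab7, Rab8, Rab11, Hrs, shrb, Vps4, Vps35, Sec61alpha, Sec23, Syx5), genes whose probe sets above background disagree in sign, the narrowest and widest spans at 0 h, and listed partners past the threshold. Other genes were named to complete their complex after their values were seen. The descriptions state no pairs, and the replicate numbers were not taken as pairs. Same-numbered arrays of the 2 ages correlated at -0.40, 0.00 and 0.22 in their deviations from the age means. With 3 arrays at 5 h and the split among the 0 h arrays, these values cannot show whether arrays were paired.

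Of the other cell type lists, array means at 0 h and 5 h were 4.54 to 4.84 and 5.01 to 5.04 for neurons, 3.80 to 6.18 and 3.63 to 3.73 for salivary gland, 3.61 to 4.18 and 3.98 to 4.21 for muscle, and 3.79 to 4.83 and 3.77 to 4.00 for epidermis.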

Additional observations from a re-analysis of the deposited data

Results flagged for a closer look

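In the 0 h group, 3 of the 74 genes had 1 array far from the other 5 by Dixon's test of the gap over the range; chance gives about 1 in 20 such genes. Sec13, shared by the COPII coat and the nuclear pore, read 8.69 on 0 h replicate 5 against 7.55 to 7.89 on the others. Sec61alpha read 6.18 on 0 h replicate 4 against 6.89 to 7.11. Rab23 read 3.40 on 0 h replicate 5 against 2.88 to 3.02, all below background.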

How the results depend on the processing

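Of all probe sets, 174 passed; of the 74 Rab, Vps, Sec and Snx genes, 1 passed. With the array of conflicting labels counted as 5 h, 352 and 2 passed (Rab10 and Sec8). Counted as 0 h, 0 and 0 passed in limma, with 1693 and 16 at an unadjusted p under 0.05. Array weights gave 1809 and 17, and the actin 3' minus 5' covariate gave 0 and 0 (unadjusted 552 and 4). A replicate block gave 743 and 6, with Rab10 at 1.14 (adjusted p = 0.0018). It pairs arrays by number, and only numbers 1 to 3 occur at both ages. Its differences are therefore those against 0 h replicates 1 to 3 alone and not a separate result. Only 0 h replicates 1 to 3 gave 1132 and 9, and only replicates 4 to 6 gave 3077 and 24. A threshold of 0.01 gave 32 and 0 (unadjusted at 0.05, 2051 and 18). The mean of the probe sets of a gene left 0 genes, with 18 at an unadjusted p under 0.05. Leaving out each array in turn gave 19 (without 5 h replicate 3) to 395 (without 0 h replicate 1) probe sets and 0 to 1 genes. With repeated quantile normalization 254 probe sets passed and the 1 gene called was Vps25, not Rab10, which differed by 0.89 (adjusted p = 0.067). Median centring left Rab10 at 1.03 (adjusted p = 0.021). The causes were not tested. When arrays were left out in turn, the median difference was 0.05 to 0.16 for the 74 genes, 0.16 to 0.39 for the secretory genes and 0.05 to 0.19 for the endocytic genes. Over the other settings it was -0.00 to 0.21, 0.14 to 0.35 and -0.03 to 0.27, so the sign held in each setting run for the secretory genes and not for the endocytic genes. Signals near background limit what can be seen for Rab23, Rab30, RabX2, RabX5, Snx16 and Vps36.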

Other observations

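The array with conflicting labels, which carries 5 h in its title and 0 h in its age and description, read 9.95 for Rab10, between the 0 h and the 5 h arrays. It read 7.46 for Sec10, 7.45 for Sec8 and 7.81 for shrb, and 6.83 for Vps25 and 4.93 for Rab26, while Rab27 read 8.77. Its actin 3' minus 5' signal was 8.44. Of the listed partners, Gdi read 8.42 and Tango1 8.09 on it.

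Among listed partners that did not pass, gammaCOP, a subunit of the COPI coat, averaged 7.80 ± 0.43 (SD, n = 6) on the 0 h arrays and 8.65 ± 0.08 (SD, n = 3) on the 5 h arrays, without overlap (limma, adjusted p = 0.085). The gene lt, the Vps41 subunit of HOPS, read 7.61, 6.99 and 7.32 in 0 h replicates 1 to 3, 6.05, 5.01 and 6.08 in replicates 4 to 6, and 7.26, 7.87 and 7.92 at 5 h (limma, adjusted p = 0.28).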
